A study of Homo sapiens with 6 samples.

Results

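Ribosomes are built in the nucleolus, where RNA polymerase I transcribes the ribosomal RNA precursor and a large set of assembly factors modifies, cuts and folds it into the small (40S) and large (60S) subunits. The genes of this pathway are usually expressed together, are driven in part by the transcription factor MYC, and are needed most in growing cells. GTPBP4 (also called NOG1) encodes a GTP-binding protein of the nucleolus that acts in the maturation of the large subunit. The question addressed here was whether the fall of GTPBP4 after knockdown of MCM7, a subunit of the replicative helicase, was shared by the other genes of ribosome biogenesis.

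The genes were those whose symbol in the count table matched a list of 51 names of ribosome biogenesis and nucleolar genes together with MYC. NOG1 is a second name of GTPBP4 and has no row of its own, so that 50 genes were found among 58302 rows, and all 50 passed the filter on low counts that left 14667 genes. No symbol occurred in more than 1 row. The list was assembled with the fall of GTPBP4 already known, and GTPBP4 is therefore described first and then set apart from the other 49 genes.

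RNA was sequenced from 3 samples of hTert immortalized 1BR3 forearm fibroblasts transfected with a pool of 4 siRNAs against MCM7 (MCM7 siRNA) and from 3 samples that received non-targeting siRNAs (control siRNA). 1BR3 is a human skin fibroblast line, which telomerase (hTert) allows to divide indefinitely. By the methods of the study, cells of both groups were transfected while cycling and then deprived of serum, which stops division and induces primary cilia. All libraries come from this 1 line, and nothing in the labels tells separate cultures from repeat samples of 1 culture. The p-values thus refer to the spread among the 6 libraries, which may be technical.

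Library size ranged from 13721281 to 23969024 reads with MCM7 siRNA and from 18669386 to 21380345 reads with control siRNA, and the smallest was MCM7 siRNA replicate 1. MCM7 was at 3.34 ± 0.167 CPM (reads relative to the scaled library size, SD, n = 3) in MCM7 siRNA cells and at 29.4 ± 2.0 CPM in control siRNA cells (edgeR adjusted p = 1.42e-19, log2 fold change -3.15 ± 0.10 SE). Fibroblast genes were high, such as COL1A1 at 3077 RPKM (RPM, the reads relative to library size, divided by gene length in kilobases) with MCM7 siRNA and 3061 RPKM with control siRNA. Of 9 fibroblast markers, COL3A1, LUM and PDGFRB were called higher (log2 fold changes 0.36, 0.16 and 0.15) and VIM lower (-0.27), which is 44.4% called, against 12.8% of all genes tested. The 18 markers of epithelial, endothelial, immune and melanocyte cells were near 0, and none of these 4 lists summed to more than 1.09 RPM in an MCM7 siRNA library or 1.54 RPM in a control siRNA library. KRT5, CD3E and TYR had no read. Of 10 markers of cycling cells, TOP2A and CDK1 were called higher (20%, against 6.18% of all genes tested), and RRM2, CCNA2 and MKI67 had negative log2 fold changes that were not called (-0.46, -0.15 and -0.10). The list summed to between 116 and 125 RPM with MCM7 siRNA and between 104 and 110 RPM with control siRNA, and TOP2A alone averaged 32.4 CPM with MCM7 siRNA and 22.5 CPM with control siRNA. The part of these marker changes in the results below was not tested. In such bulk samples, fewer cells of a kind and less RNA per cell cannot be told apart.

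GTPBP4 was clearly lower with MCM7 siRNA. The gene (ENSG00000107937) lies on the plus strand of chromosome 10 at 988434 to 1019932 (GRCh38). It had 223, 433 and 422 reads in the MCM7 siRNA libraries and 666, 692 and 831 reads in the control siRNA libraries. Scaled to library size, this was 16.3, 21.2 and 17.6 CPM with MCM7 siRNA, against 35.7, 34.5 and 39.2 CPM with control siRNA. The highest MCM7 siRNA library thus lay far below the lowest control siRNA library, although replicate 2 retained more GTPBP4 RNA than the other MCM7 siRNA libraries. The mean was 18.4 ± 2.53 CPM against 36.5 ± 2.47 CPM (SD, n = 3), a fall of 1.97-fold (log2 fold change -0.98, 95% interval -1.14 to -0.81, edgeR adjusted p = 7.53e-10). Only 37 of the 14667 genes tested (0.252%) had a more negative log2 fold change.

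Members that share the role of GTPBP4 served as the nearest comparison. GNL2 and GNL3 (nucleostemin) encode 2 further GTP-binding proteins of the nucleolus, and GNL2 acts, like GTPBP4, on precursors of the large subunit. GNL2 was at 41.1, 42.7 and 41.7 CPM in the MCM7 siRNA libraries and at 40.1, 43.3 and 41.5 CPM in the control siRNA libraries, so that the groups overlapped (log2 fold change 0.01, 95% interval -0.11 to 0.13). GNL3 had 52.3, 54.3 and 53.7 CPM with MCM7 siRNA, against 53.3, 51.4 and 51.7 CPM with control siRNA, and overlapped as well (log2 fold change 0.04, 95% interval -0.08 to 0.15). The ratio of GTPBP4 to GNL2, both per length, was 0.349, 0.437 and 0.371 in the MCM7 siRNA libraries and 0.783, 0.700 and 0.830 in the control siRNA libraries. Since GNL2 hardly changed, this ratio restates the fall of GTPBP4 and adds no separate evidence. The values of GNL2 and GNL3 in each library were added after they were seen.

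The promoters of GTPBP4 and GNL2 are shown because GTPBP4 fell and GNL2 was not called, while both carry the same 14 bases just upstream of the start. The promoter of NPM3, the gene with the next largest change, is shown beside them. Each line gives the 150 bases before the RefSeq transcription start (GRCh38.p14), 5′ to 3′ on the strand of the gene, and capitals mark the stretch that GTPBP4 and GNL2 have in common.
GTPBP4, chr10:988284-988433, plus strand: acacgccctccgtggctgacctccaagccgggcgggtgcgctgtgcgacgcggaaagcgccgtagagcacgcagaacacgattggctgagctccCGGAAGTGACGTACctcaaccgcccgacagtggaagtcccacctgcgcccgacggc
GNL2, chr1:37595938-37596087, minus strand: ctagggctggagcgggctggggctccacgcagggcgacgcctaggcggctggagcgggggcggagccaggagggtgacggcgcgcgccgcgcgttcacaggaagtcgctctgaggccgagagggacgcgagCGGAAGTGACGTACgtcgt
NPM3, chr10:101783447-101783596, minus strand: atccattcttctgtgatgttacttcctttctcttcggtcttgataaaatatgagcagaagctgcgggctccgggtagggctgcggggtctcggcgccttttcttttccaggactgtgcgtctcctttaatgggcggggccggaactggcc

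The shared stretch CGGAAGTGACGTAC begins 56 bases before the start of GTPBP4 and 19 bases before that of GNL2. It joins CGGAAG, the core of sites bound by ETS factors, to TGACGT, part of the cyclic AMP response element, without overlap between these motifs. On either strand it occurs in 5 of 27305 promoters of 300 bases (0.0183%). Promoters matched 43 of the 50 genes. CACGTG, the E-box bound by MYC and related factors, was present on either strand in 16 of these 43 (37.2%), against 7.43% of all promoters. Of the 6 genes called lower, 1 had it (RRP9, 16.7%), and of the 37 not called, 15 had it (40.5%). GTPBP4 had none. CGGAAG occurred in 23 of 43 member promoters (53.5%), against 19.9% of all promoters, and TGACGT in 10 of 43 (23.3%), against 8.32%. These 2 motifs and the shared stretch were chosen after the sequences were seen. A match describes the letters only.

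Over all 50 genes, 6 were called lower with MCM7 siRNA and 0 higher (edgeR adjusted p under 0.05). They were GTPBP4, NPM3, RRP9, DKC1, NOB1 and NOP56. This is 12% lower calls, against a background of 6.65% lower and 6.18% higher over all genes tested (12.8% in both directions). Without GTPBP4, 5 of 49 were lower (10.2%). Before adjustment, 11 of the 50 genes were lower and 2 higher at p under 0.05. The share of all genes at that unadjusted threshold is not given here, so that such counts have no background to be read against. DESeq2 called 2 of the 50 members lower (GTPBP4 and NPM3) and 0 higher, against 1332 of the 14667 genes in either direction. For DESeq2 the share of all genes by direction is not given here. The higher share of lower calls among the members thus rests on edgeR. The count of lower genes was 2 without MCM7 siRNA replicate 1, 3 without control siRNA replicate 1 and 2 without control siRNA replicate 2. GTPBP4 and NPM3 were called in each of these fits and the other 4 genes were not, apart from NOB1 without control siRNA replicate 1. Without MCM7 siRNA replicate 3 the nucleolar phosphoprotein gene NOLC1 was called higher.

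None of the other 49 genes moved as far as GTPBP4. For all 49, the whole 95% interval of the log2 fold change lay above the interval of GTPBP4, and the lowest bound among them was -0.74, for NPM3. For 48 of the 49, the interval stayed within 1.5-fold in either direction, NPM3 being the exception, and for 29 within 1.2-fold. The groups of CPM values did not overlap for 16 of the 50 genes (32%), close to the 29.6% of all genes tested. Of the 16, 13 were lower and 3 higher with MCM7 siRNA. The share of all genes by direction is not given here, so that this split has no background to be read against.

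**Figure D1:**
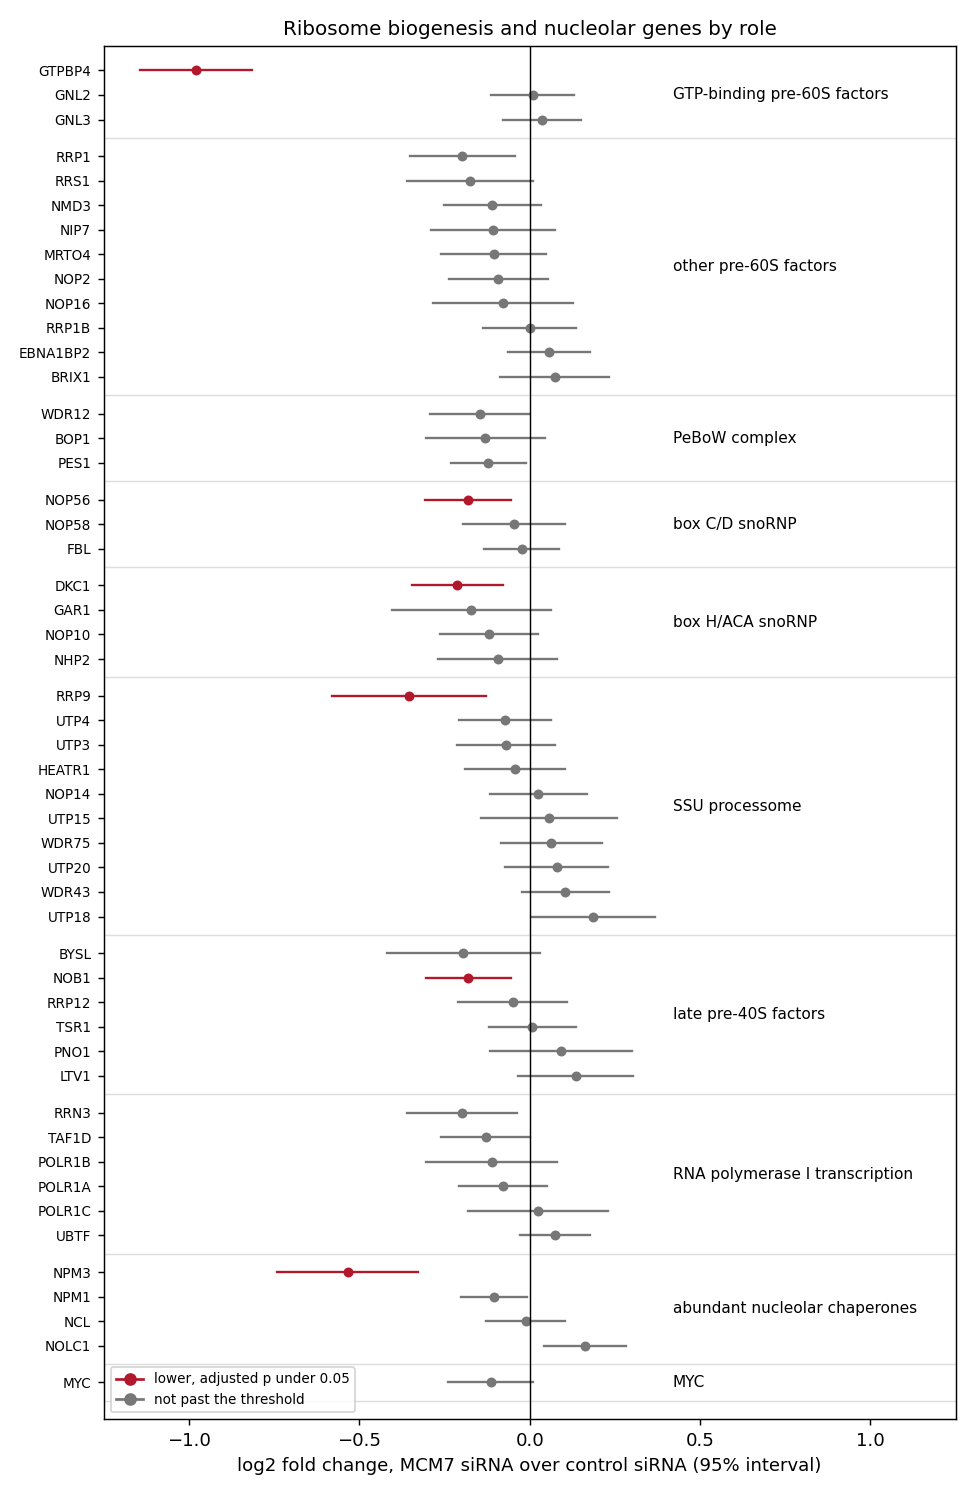
Log2 fold change (MCM7 siRNA over control siRNA, x axis) of each of the 50 genes, grouped by role, with points for the estimate and lines for its 95% interval. The 6 genes called lower are in red, GTPBP4 stands alone at -0.98, and the intervals of all the other genes lie to its right.

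A small shift remained among the other genes. Their median log2 fold change was -0.08, against -0.00 over all genes tested. With GTPBP4 included, 66% of the 50 genes had a negative value, against 50.7% of all genes. Relative to the mean of the control siRNA libraries, the median log2 ratio of the 49 genes was -0.07, -0.04 and -0.06 in the MCM7 siRNA libraries and -0.01, 0.01 and -0.00 in the control siRNA libraries. The same ratio of GTPBP4 was -1.16, -0.78 and -1.05 in the MCM7 siRNA libraries and -0.03, -0.08 and 0.11 in the control siRNA libraries. The 9 mitochondrial transcripts examined were also all negative, between -0.15 and -0.04 (median -0.11), and their part in the shift was not tested. None of them was called by edgeR or DESeq2, and 2 had an unadjusted p under 0.05. Summed over the 49 genes, the level was 2039, 2051 and 2011 CPM with MCM7 siRNA and 2109, 2136 and 2056 CPM with control siRNA, so that the groups did not overlap but nearly met. With NPM1 and NCL also left out, the sum was 1386, 1386 and 1389 CPM with MCM7 siRNA. It was 1418, 1441 and 1420 CPM with control siRNA, again without overlap. No test was made of either sum, since their genes were chosen with results known.

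**Figure D2:**
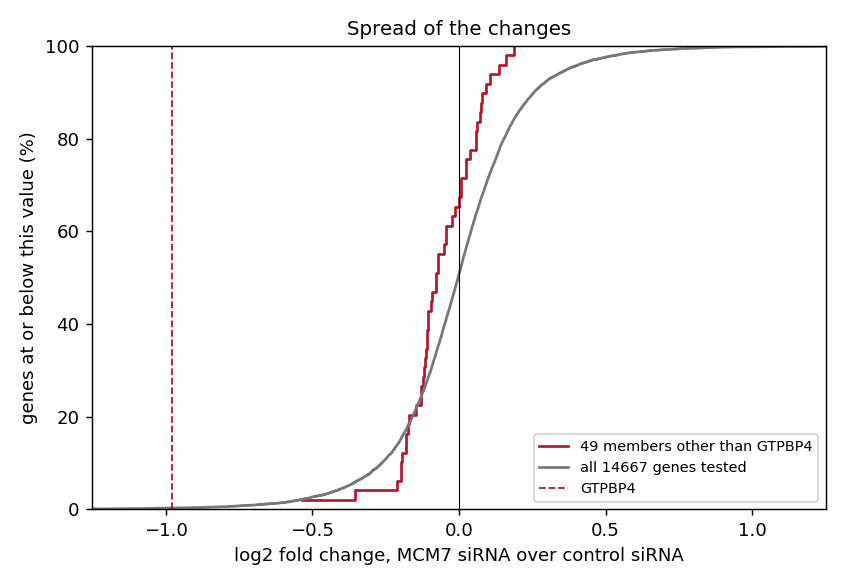
Share of genes (y axis, percent) with a log2 fold change (x axis) at or below each value, for the 49 members other than GTPBP4 and for all 14667 genes tested. The member curve runs between -0.53 and 0.19, is steeper than that of all genes and crosses 50% at -0.08, and the dashed line marks GTPBP4 at -0.98.

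Factors of the large subunit were not called apart from GTPBP4. The remaining 10 of these factors had log2 fold changes between -0.20 and 0.07 (median -0.10), and 7 of them were negative. RRP1, a nucleolar factor of large subunit assembly, had the smallest p. It was at 17.8, 17.5 and 16.8 CPM in the MCM7 siRNA libraries and at 19.7, 19.4 and 20.4 CPM in the control siRNA libraries, without overlap, but missed the threshold (edgeR adjusted p = 0.0827, log2 fold change -0.20 ± 0.08 SE). Its paralog RRP1B had a log2 fold change of 0.00. The ribosomal RNA methyltransferase NOP2 was at -0.09. In GENCODE 44, 54.4% of its exon bases are shared with another gene on the same strand. The study counted reads on a different annotation, and whether the overlap affected the count of NOP2 was not tested. NMD3, the adaptor that exports the large subunit from the nucleus, was at -0.11, MRTO4, a relative of the ribosomal stalk protein P0, at -0.11, and NIP7 also at -0.11. RRS1, which acts in the incorporation of the 5S RNA particle, was at -0.17, NOP16 at -0.08, BRIX1 at 0.07 and EBNA1BP2 at 0.06.

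PES1, BOP1 and WDR12 form the PeBoW complex, which is needed to process the precursor of the large subunit RNAs. All 3 had negative values, of -0.12, -0.13 and -0.15 on the log2 scale, and none was called. PES1, with the smallest p of the complex, was at 58.7, 58.0 and 56.7 CPM with MCM7 siRNA, against 62.1, 63.7 and 62.6 CPM with control siRNA (edgeR adjusted p = 0.146). The groups did not overlap for PES1, but the difference was under 1.2-fold across its 95% interval of -0.23 to -0.01.

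Small nucleolar ribonucleoproteins guide the chemical modification of ribosomal RNA. Box C/D particles methylate it through the enzyme FBL, held by the scaffold proteins NOP56 and NOP58. NOP56 was at 35.7, 35.3 and 37.9 CPM in the MCM7 siRNA libraries and at 41.4, 39.9 and 42.4 CPM in the control siRNA libraries. Every MCM7 siRNA value was below every control siRNA value, and the gene fell 1.13-fold, only just past the threshold (edgeR adjusted p = 0.0492). The call was lost with DESeq2 (adjusted p = 0.102) and in each fit that left out 1 library except that without MCM7 siRNA replicate 3 (adjusted p up to 0.197). It was lost as well with DESeq2-type size factors (0.0515), library size alone (0.0672), no filter on low counts (0.0862), limma (0.0596 and 0.0592) and thinning to the smallest library (0.0561), so that NOP56 was called in 3 of 15 alternative fits. NOP58 (log2 fold change -0.05) and FBL (-0.02) did not pass. Introns of NOP56 hold small nucleolar RNAs, and 9.54% of its exon bases are shared with 5 such genes and the microRNA gene MIR1292 in GENCODE 44.

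Box H/ACA particles convert uridine to pseudouridine through the enzyme DKC1 (dyskerin), together with NHP2, NOP10 and GAR1, and the same proteins bind the RNA of telomerase. DKC1 was at 31.3, 32.6 and 31.4 CPM with MCM7 siRNA, against 39.4, 36.9 and 34.3 CPM with control siRNA. The groups did not overlap, and the control siRNA libraries were spread more widely than the MCM7 siRNA libraries. DKC1 fell 1.16-fold (log2 fold change -0.21 ± 0.07 SE, edgeR adjusted p = 0.0301), a call lost with DESeq2 (adjusted p = 0.0683) and without MCM7 siRNA replicate 1 or control siRNA replicates 1 or 2 (adjusted p = 0.0988, 0.177 and 0.0910), and after thinning to the smallest library (0.0546). All 4 proteins of the particle had negative values, with NHP2 at -0.09, NOP10 at -0.12 and GAR1 at -0.17, none of them called.

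In the processome of the small subunit, the assembly that forms on the nascent precursor around the U3 RNA, 1 of 10 genes was called. RRP9, a protein of the U3 particle itself, was at 8.05, 9.94 and 10.2 CPM in the MCM7 siRNA libraries and at 11.6, 14.4 and 10.6 CPM in the control siRNA libraries. The highest MCM7 siRNA value (10.2 CPM) and the lowest control siRNA value (10.6 CPM) nearly touched. RRP9 fell 1.28-fold (log2 fold change -0.35 ± 0.11 SE, edgeR adjusted p = 0.0310), but not past the threshold of DESeq2 (adjusted p = 0.0689) or without MCM7 siRNA replicate 1 or control siRNA replicates 1 or 2 (adjusted p = 0.143, 0.0614 and 0.265), or after thinning to the smallest library (0.112). The other 9 genes were not called, and 6 of the 10 had positive values. UTP18 was highest (log2 fold change 0.19), followed by WDR43 at 0.11, UTP20 at 0.08, WDR75 at 0.06, UTP15 at 0.06 and NOP14 at 0.03. HEATR1 was at -0.04, and UTP3 and UTP4 were both at -0.07. UTP4, UTP15, WDR43, WDR75 and HEATR1 belong to the part of the processome that also affects transcription by RNA polymerase I.

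Among 6 factors of late small subunit maturation, NOB1, the endonuclease that cuts the final end of 18S ribosomal RNA, was called. It was at 39.1, 38.5 and 39.5 CPM with MCM7 siRNA, against 42, 45.3 and 45.2 CPM with control siRNA, without overlap and with tight replicates in the MCM7 siRNA group. NOB1 fell 1.13-fold (edgeR adjusted p = 0.0468), and the call was lost with DESeq2 (adjusted p = 0.0965) and without MCM7 siRNA replicates 1 or 2 or control siRNA replicates 2 or 3 (adjusted p = 0.117, 0.0895, 0.158 and 0.182). It was lost as well with library size alone (0.0652), no filter on low counts (0.0828), limma (0.0636 and 0.0628) and thinning to the smallest library (0.223), so that NOB1 was called in 5 of 15 alternative fits. PNO1, the partner of NOB1 on the particle, had a log2 fold change of 0.09 and was not called. LTV1 was at 0.14, with 34.7% of its exon bases shared with other genes on its strand, TSR1 at 0.01, the export factor RRP12 at -0.05 and BYSL at -0.19.

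No gene of RNA polymerase I transcription passed the threshold. The catalytic subunits POLR1A and POLR1B were at -0.08 and -0.11 on the log2 scale, and POLR1C, shared with RNA polymerase III, was at 0.02. UBTF, which binds the ribosomal DNA promoter, was at 0.08 and TAF1D, a subunit of the promoter selectivity factor, at -0.13. RRN3, which makes the polymerase competent to initiate, was at 20.6, 22.8 and 19.7 CPM in the MCM7 siRNA libraries and at 25.5, 25.3 and 21.6 CPM in the control siRNA libraries. These groups overlapped, since control siRNA replicate 3 lay within the range of the MCM7 siRNA libraries (edgeR adjusted p = 0.0990, log2 fold change -0.20 ± 0.08 SE). RRN3 passed without MCM7 siRNA replicate 2 (adjusted p = 0.0312) or control siRNA replicate 3 (adjusted p = 0.0457), and 3 pseudogenes of RRN3 are listed in the table, so that reads shared with them would be missing from its count.

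Of 4 genes grouped as nucleolar chaperones, only NPM3 was called. It had 103 to 226 reads in a library, far fewer than NPM1. NPM3, a small histone-binding relative of nucleophosmin, was at 7.53, 6.71 and 7.48 CPM in the MCM7 siRNA libraries and at 10.3, 10.4 and 10.7 CPM in the control siRNA libraries. The groups were far apart for so small a spread, and the gene fell 1.45-fold (edgeR adjusted p = 0.000443, log2 fold change -0.53 ± 0.10 SE). Nucleophosmin itself, NPM1, was at 325, 341 and 312 CPM with MCM7 siRNA, against 343, 358 and 350 CPM with control siRNA, without overlap but not called (edgeR adjusted p = 0.156, log2 fold change -0.10 ± 0.05 SE). The table lists 45 pseudogenes named after NPM1, and reads that map equally to them were not counted. Nucleolin, NCL, was at -0.01 on the log2 scale, and NOLC1, which binds small nucleolar ribonucleoproteins, at 0.16, the highest value but that of UTP18 of the 50 genes (edgeR adjusted p = 0.0682).

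MYC was not called. It was at 39.3, 39.5 and 43.0 CPM in the MCM7 siRNA libraries and at 43.8, 43.3 and 45.1 CPM in the control siRNA libraries. The groups just failed to overlap, at 43.0 CPM against 43.3 CPM (log2 fold change -0.11 ± 0.06 SE, 95% interval -0.24 to 0.01, edgeR adjusted p = 0.240). Of 9 tested genes of the network of MYC partners and antagonists, 1 was called (11.1%, against 12.8% of all genes tested). It was MXD4, which encodes an antagonist that competes for the partner MAX. MXD4 was at 84.6, 81.7 and 92.9 CPM with MCM7 siRNA, against 98.6, 103 and 98.7 CPM with control siRNA, and fell 1.16-fold (edgeR adjusted p = 0.00825), a call lost without MCM7 siRNA replicate 1 (adjusted p = 0.0504) or control siRNA replicate 2 (adjusted p = 0.0600). The median log2 fold change of this network was 0.10.

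**Figure D3:**
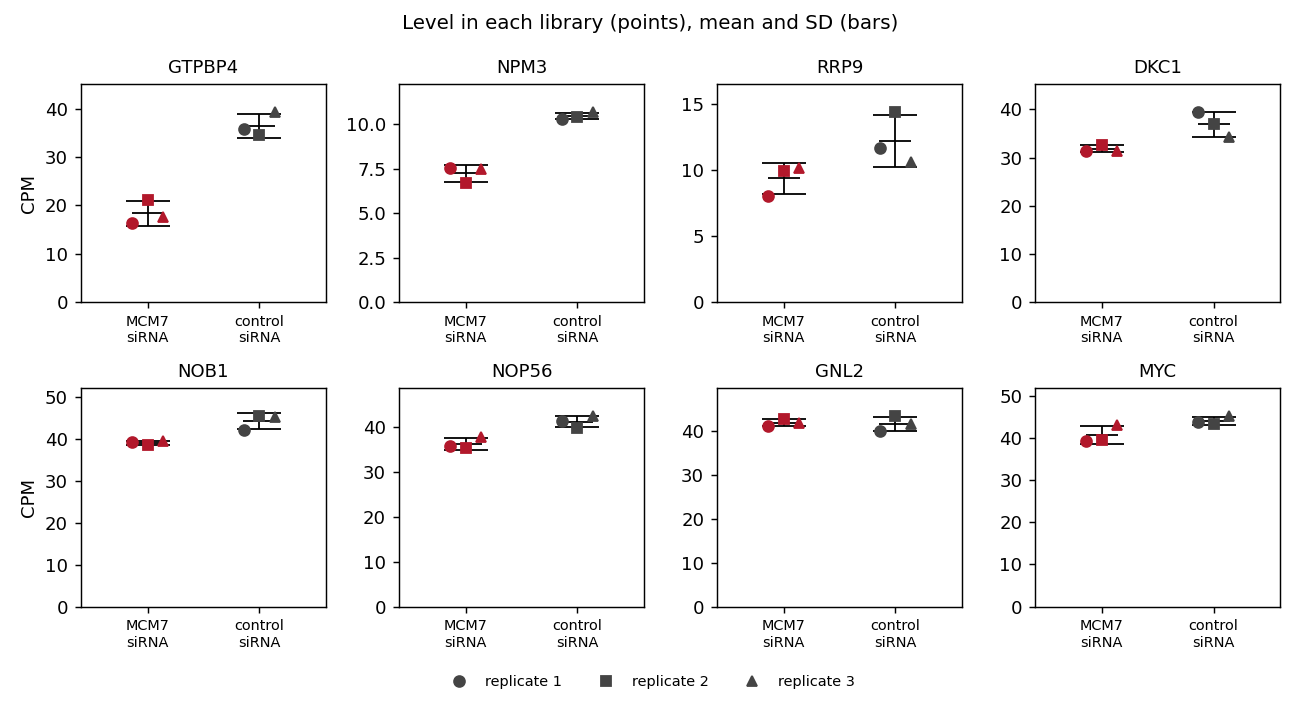
Level in CPM (y axis, from 0) of the 6 genes called lower and of GNL2 and MYC in each MCM7 siRNA and control siRNA library, with symbols for replicates and bars for the mean and SD (n = 3). GTPBP4 and NPM3 are well separated between groups, the other 4 called genes only just, and GNL2 overlaps.

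Per length, the 50 genes covered a wide range of levels. NOP10 was highest with a mean of 101 RPKM in MCM7 siRNA cells and 110 RPKM in control siRNA cells, followed by NPM1 (85.4 and 91.1 RPKM), NCL (46.4 RPKM in both groups) and FBL (31.7 and 32.0 RPKM). UTP15 was at 1.67 and 1.58 RPKM and POLR1B at 1.68 and 1.79 RPKM. GTPBP4, at 2.82 RPKM with MCM7 siRNA and 5.55 RPKM with control siRNA, ranked 46th of the 50 genes with MCM7 siRNA and 30th with control siRNA. Among the called genes, NOB1 was highest at 18.5 and 20.8 RPKM, but its call held in only 5 of 15 alternative fits. NPM3, called in all 15, was at 7.83 RPKM with MCM7 siRNA and 11.2 RPKM with control siRNA.

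To see whether genes outside the list behaved in the same way, 5 further lists were examined. They comprised other genes of the large and the small subunit pathway, of RNA polymerase I, of the RNA exosome and ribosomal RNA nucleases, and non-coding genes that host small nucleolar RNAs. Of their 141 tested genes, 3 were called lower (2.13%) and 2 higher (1.42%), both below the background of 6.65% and 6.18%, and their median log2 fold change was -0.03. Before adjustment 23 had p under 0.05, a count likewise given without a share over all genes. In the list of the large subunit, 1 of 44 genes was called (2.27%), the helicase gene DDX18. It rose 1.16-fold (44, 46.4 and 43.2 CPM with MCM7 siRNA, against 37.6, 40.03 and 37.6 CPM with control siRNA, edgeR adjusted p = 0.0179). DDX18 lost its call without MCM7 siRNA replicate 2 or control siRNA replicates 1 or 3 (adjusted p = 0.0664, 0.0814 and 0.0958). In the list of the small subunit, 1 of 45 was called (2.22%), the kinase gene RIOK3. It rose 1.21-fold (51.4, 53.5 and 52.2 CPM with MCM7 siRNA, against 44.1, 41.1 and 44.4 CPM with control siRNA, edgeR adjusted p = 0.00133) and was called in every fit that left out 1 library.

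Of 15 further genes of RNA polymerase I, 1 was called (6.67%). It was POLR1D, a subunit shared with RNA polymerase III, which fell 1.13-fold (59.5, 52.3 and 59.1 CPM with MCM7 siRNA, against 64.5, 63.8 and 65.5 CPM with control siRNA, edgeR adjusted p = 0.0354). The median log2 fold change of that list was 0.06. None of 23 exosome and nuclease genes was called by edgeR or DESeq2, and 3 had an unadjusted p under 0.05. Of 14 host genes of small nucleolar RNAs, SNHG7 and ZFAS1 were called, both lower. This is 14.3%, against 12.8% of all genes tested in both directions and 6.65% lower. The median of the list was -0.10. SNHG7 was at 18.9, 17.6 and 18.4 CPM with MCM7 siRNA, against 23.1, 22.2 and 20.5 CPM with control siRNA, and fell 1.2-fold (edgeR adjusted p = 0.0189). ZFAS1 was at 22.2, 20.3 and 24.5 CPM with MCM7 siRNA, against 27.5, 25.4 and 26.0 CPM with control siRNA, and fell 1.17-fold (edgeR adjusted p = 0.0427). In both genes the groups did not overlap. POLR1D, SNHG7 and ZFAS1 missed the threshold of DESeq2 (adjusted p = 0.0661, 0.0559 and 0.0975) and of edgeR without MCM7 siRNA replicate 2 or control siRNA replicates 1 or 2. POLR1D and ZFAS1 also missed it without control siRNA replicate 3, and ZFAS1 without MCM7 siRNA replicate 1.

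**Figure D4:**
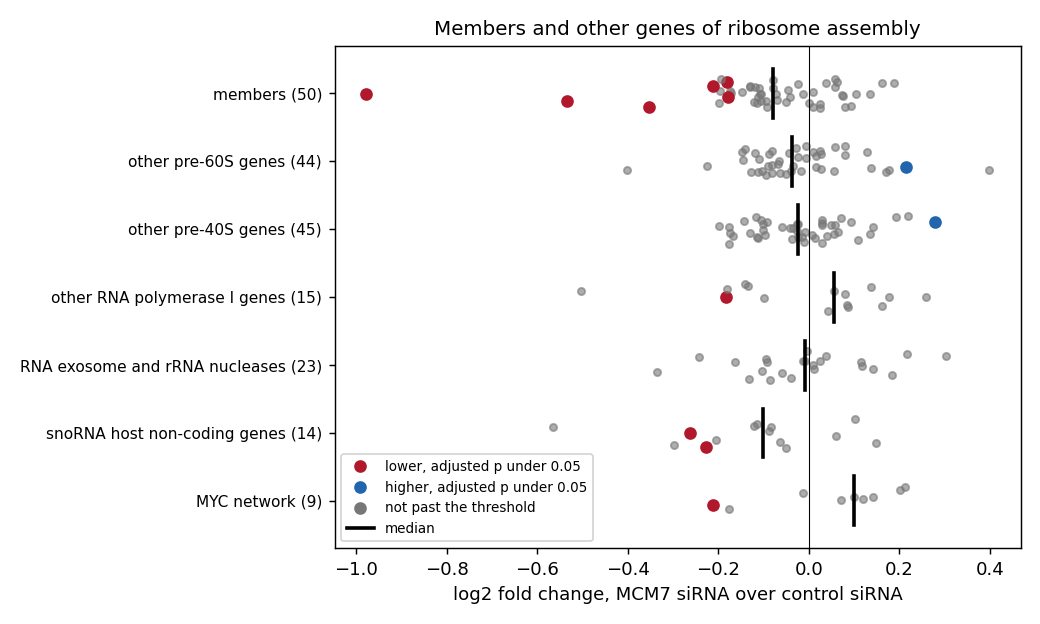
Log2 fold change (MCM7 siRNA over control siRNA, x axis) of the 50 members and of the genes of 6 further lists (rows, number tested in brackets), with black bars for the median of each list. Red points were called lower and blue points higher, and GTPBP4 is the leftmost point at -0.98, and the lowest gene of the further lists is at -0.56.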

How the data were processed

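Poly(A)+ RNA of the 6 samples was made into stranded libraries and sequenced from one end. According to the submitters' processing notes and the study's methods, the authors used bcl2fastq 1.8.4, TopHat2 2.1.0 on GRCh38 with unique alignments to annotated loci only, and featureCounts 1.5.0 by strand. Reads shared with near-identical copies are therefore missing. The deposited counts were raw reads per gene, the deposited RPM were those counts relative to the reads assigned in the library, and the deposited RPKM were RPM divided by 1 length per gene. RPKM served for levels between genes and RPM for marker sums and 2 alternatives.

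Counts were filtered with filterByExpr, scaled by TMM and compared over all genes in edgeR 4.0.16 (R 4.3.3) by its two-sided quasi-likelihood test. A gene was called at a Benjamini-Hochberg adjusted p under 0.05. Adjusted p-values come from edgeR unless DESeq2 1.42.0 is named, and intervals are 95% from the same fit. Alternatives were other scalings, filters, tests (DESeq2, limma 3.58.1 on log2(RPM + 0.5) and log2(RPM + 2)), thinning to the smallest library, a replicate block, stricter thresholds, matching by older symbols and leaving out each library. The scripts were tested on simulated data.

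The members and gene lists were chosen with earlier results of these data known. Values in every library are given for GTPBP4, MYC, up to 3 called members of each role group, or the member with the smallest p where none was called, and the called genes of the other lists. GNL2, GNL3 and NPM1 were added after their values were seen. Positions and exon overlap come from GENCODE 44 on GRCh38, promoters (250 bases before to 50 after the start) from RefSeq on GRCh38.p14. Protein sequences were not used here. Figures were drawn with matplotlib 3.10.9.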

Additional observations from a re-analysis of the deposited data

How the results depend on the processing

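GTPBP4 and NPM3 kept direction and call in all 15 alternative fits at the same threshold, with log2 fold changes of -1.09 to -0.91 and -0.57 to -0.42. The median of the members lay between -0.08 and -0.06 in 16 alternatives, and leaving out 1 library gave -0.08 to -0.07. The median of all genes was -0.00 with TMM and with DESeq2-type size factors and 0.01 with library size alone. The number of members called lower, 6, was 2 with DESeq2, 2 in both tools, 2 at an adjusted p under 0.01, 3 after thinning to the smallest library, 1 at 1.5-fold or more, 5 with DESeq2-type size factors, and 4 each with library size alone, no filter on low counts and both limma fits. NOP56 was not called in these last 5 fits, nor NOB1 in the last 4. The count ranged from 2 to 7 when 1 library was left out, and that of members called higher from 0 to 1. The number of all genes called, 1881, was 1332 with DESeq2, 1321 in both tools, 1030 at an adjusted p under 0.01 and 188 at 1.5-fold or more. It was 1672 after thinning, and between 1894 and 1957 with the other scalings, no filter and both limma fits. Leaving out 1 library gave 1151 to 2265. In the 5 further lists, lower calls numbered 5 with no filter and 5 after thinning, and 0 with DESeq2, in both tools, at an adjusted p under 0.01 and at 1.5-fold or more (0 to 7 when 1 library was left out). Higher calls in these lists numbered 4 with library size alone, 4 with limma on log2(RPM + 0.5), 1 at an adjusted p under 0.01 and 0 at 1.5-fold or more (1 to 3 when 1 library was left out). RRP1 was called after thinning (adjusted p = 0.0486). Beyond the smaller number of libraries or reads, the cause was not tested.

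With the replicate number as a block, the same 6 members were called, GTPBP4 had a log2 fold change of -0.99, the median of the members was -0.08 and 1961 genes were called. Deviations from the group mean of libraries with the same number did not correlate (-0.01, -0.03 and -0.02). This cannot tell whether such libraries were handled together, and the labels give only the number. Depth and 3 libraries a group left a standard error of 0.05 to 0.11 on the log2 scale for single members. Matching by older symbols added no gene.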

Other observations

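The genes next to GTPBP4 on chromosome 10 were looked up after its fall was known. The nearest tested gene on the left, LARP4B, ends 56613 bases before GTPBP4 and had a log2 fold change of 0.15 ± 0.06 SE (edgeR adjusted p = 0.0948). On the right, IDI1 begins 19220 bases after its end, with -0.06 ± 0.07 SE (adjusted p = 0.629), and WDR37 begins 29606 bases after its end, with 0.12 ± 0.09 SE (adjusted p = 0.393). None of these genes was called.

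Over all tested genes with a 3′ untranslated region of at least 50 bases in GENCODE 44, 204 of 1791 genes that carry the 7-mer GAGATGA there were called lower (11.4%), against 721 of 10129 genes that lack it (7.12%), while the shares called higher were 7.26% and 7.30%. The untranslated region of GTPBP4 has 2708 bases and no GAGATGA, and neither did those of the other 5 members called lower. Of the 49 members with such a region, UTP3 and HEATR1 carry 1 site each, and their log2 fold changes were -0.07 and -0.04. This 7-mer was chosen from earlier results of these data, so that the shares over all genes are a description. Genes with and without it were not matched for the length of the region, and no other 7-mer is given here.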
